A study of Mus musculus with 3 samples.

Results

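Testis was set against liver in strand-specific sequencing of polyadenylated RNA from male C57BL/6 mice aged 11 weeks, with 1 library of whole testis and 1 library of whole liver. The labels name no treatment and no genotype beyond this inbred strain, and do not say how many animals gave each library. Levels are the deposited FPKM values of each gene, which scale fragments to transcript length and to library size, and each comes with an interval. Of 36809 gene identifiers in both tables, 30093 were kept, because their locus spanned at least 200 bp and both estimates were marked OK; 5012 were shorter and 1704 lacked an OK estimate in 1 or both organs. With no second library of either organ, differences are described by size and no test was possible.

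Adult testis makes sperm throughout life. Spermatogonia divide, spermatocytes pair and recombine their chromosomes, and spermatids then build an acrosome and a flagellum and replace histones with protamines. Germ cells use many gene copies that other organs leave silent, and the X chromosome is silenced during male meiosis. Liver is dominated by hepatocytes, which secrete plasma proteins, break down amino acids, make urea, bile acids and glucose, and modify foreign compounds.

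A locus was called higher or lower in testis when log2(FPKM + 1) differed by at least 2, that is 4-fold on FPKM + 1, and the authors' intervals did not overlap. This held for 5258 loci higher in testis, 17.5% of those kept, and 1337 lower, 4.44%. These shares are the background against which each count below is read, and the median difference over all kept loci was 0.09 on the log2 scale. Among the 18873 protein-coding loci the shares were 20.6% higher and 6.11% lower. At 1 FPKM or more there were 14516 loci in testis and 10307 in liver, of which 8805 were shared. Of the summed FPKM of protein-coding loci, the 100 most abundant took 31.9% in testis and 71.3% in liver. A scaling that leaves out the 100 most abundant of all kept loci moves every other gene. Without them, the median difference of the loci at 1 FPKM or more in either organ shifted by -0.64, against -0.43 with a median ratio and 0.10 with the protein-coding sum. The higher loci made up 79.7% of all calls as deposited, 70.5% with the median ratio and 66.0% without the 100 most abundant loci. Read counts were not used here, so depth per gene shows only in the intervals, whose median half-width at 1 to 2 FPKM was 19.3% of the value in testis and 12.4% in liver. In whole organs, fewer cells of a type and less RNA per cell cannot be told apart.

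**Figure D1:**
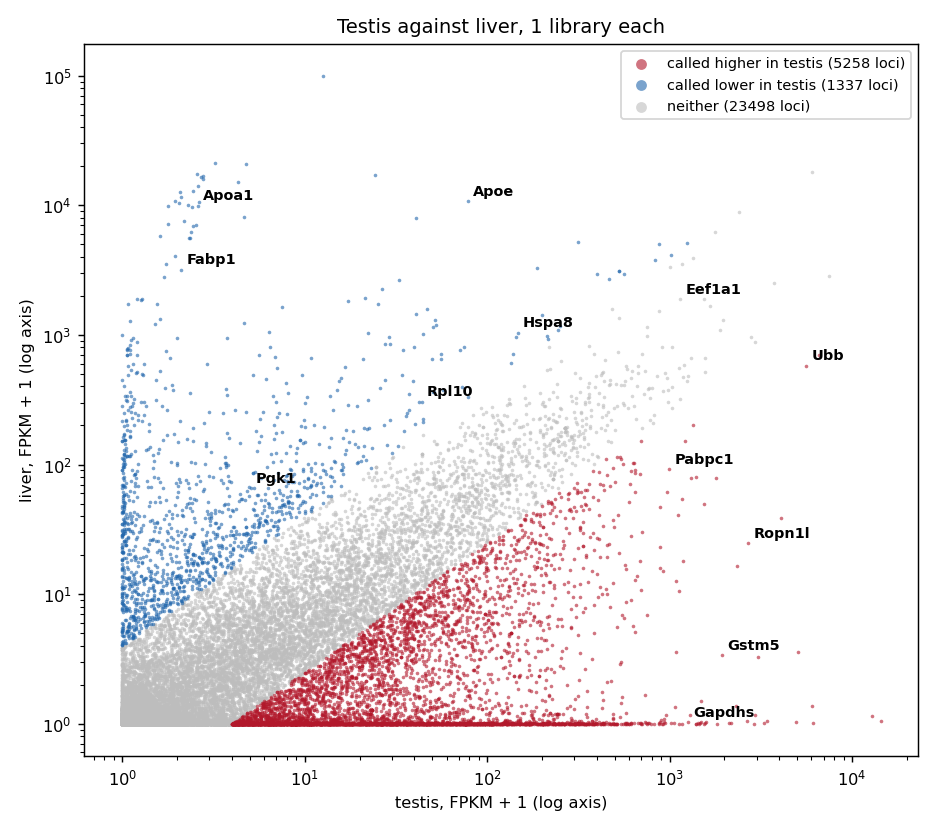
Each point is 1 of 30093 loci, with FPKM + 1 in testis on the horizontal log axis and FPKM + 1 in liver on the vertical log axis, 1 library each. The 5258 loci called higher in testis reach down to the liver floor, and the 1337 called lower lie along the left edge and above the diagonal, with Apoa1, Apoe and Fabp1 among them.

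Markers of hepatocytes, spermatocytes and spermatids matched the labelled organs, and other marker lists had smaller shares of calls. All 14 kept spermatid markers and all 14 kept spermatocyte markers were called higher, with summed levels of 38803 and 2111 FPKM in testis and 0.282 and 1.21 FPKM in liver. All 9 kept hepatocyte markers were called lower and summed to 18.6 FPKM in testis and 40801 FPKM in liver. Fewer were called lower among Kupffer cell and macrophage markers, 3 of 14, endothelial markers, 3 of 13, and stellate cell and fibroblast markers, 2 of 12. Every kept Kupffer and endothelial marker was still lower in testis in value, with highest differences of -0.526 and -0.529. Some, such as Marco at 0.00717 FPKM in testis and 2.74 FPKM in liver, were too low to reach 4-fold on FPKM + 1. Bile duct markers had 4 of 10 called lower and 2 higher. The 2 were Epcam at 23.5 FPKM in testis and 0.455 FPKM in liver, and Muc1 at 5.89 FPKM in testis and 0.106 FPKM in liver. Of 9 Leydig cell markers 7 were called higher, of 14 Sertoli cell markers 7, of 7 peritubular myoid cell markers 2, and of 15 spermatogonium markers 5, with Gfra1, the GDNF co-receptor, called the other way at 0.769 FPKM in testis and 25.3 FPKM in liver. Haemoglobin RNA was found in both libraries, and the 4 genes lay between 2.81 and 3.81 FPKM in testis and between 43.0 and 61.3 FPKM in liver, and all were called lower. Igkc, an antibody light chain gene, had 0.547 FPKM in testis and 34.8 FPKM in liver, while 13 of 16 lymphocyte and neutrophil markers were under 1 FPKM in both. Of 12 epididymis markers 8 were under 1 FPKM in both organs, and Lcn5, Lcn8, Adam7, Defb9, Defb10, Spint4 and Gpx5 were listed at 0 in testis. Cst8, a cystatin gene, was the highest of the list at 227 FPKM in testis and a listed 0 in liver. The part of blood and of other minor cell types in the results below was not tested.

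Among the function lists higher in testis, genes of the sperm tail had the largest median difference after those of the acrosome. The axoneme list holds dynein chains, radial spoke proteins, tektins and outer dense fibre proteins, and 38 of its 42 kept members were called higher with none lower, at a median difference of 5.65. Its members summed to 12614 FPKM in testis and 40.3 FPKM in liver. Odf2, an outer dense fibre protein also found at centrosomes, had 3056 FPKM in testis and 2.26 FPKM in liver. Ropn1l, which binds the anchoring region of A-kinase anchoring proteins in the fibrous sheath, had 2692 FPKM in testis and 23.6 FPKM in liver. Odf1, the main outer dense fibre protein, had 1822 FPKM in testis and a listed 0 in liver, and Rsph1, a radial spoke head subunit, had 1299.9 FPKM in testis and 0.159 FPKM in liver. The intervals of all 4 were narrow in testis, for example 3045 to 3067 FPKM for Odf2. The 4 members without a call, Dnah5, Dnah9, Dnah11 and Rsph4a, all under 1 FPKM in both organs, are known mainly from motile cilia of the airway and other epithelia.

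Families of the same structures went the same way. Among genes named for cilia and flagella (Cfap), 25 of 27 were called higher, and among intraflagellar transport and Bardet-Biedl genes 17 of 21. Cfap298, a factor of dynein arm assembly, was the highest of the Cfap genes at 709 FPKM in testis and 29.1 FPKM in liver, and Ift46, a subunit of the transport train that carries cargo towards the tip, had 650 FPKM in testis and 90.4 FPKM in liver. Tubulin glutamylases and related ligases (Ttll), which modify axonemal tubulin, gave 11 of 12 called higher, led by Ttll13 at 102 FPKM in testis and 0.0525 FPKM in liver. Of 35 kinesins 19 were called higher and 1 lower, Kif2b at 350 FPKM in testis and 0.00294 FPKM in liver against Kif1c at 1.49 FPKM in testis and 16.9 FPKM in liver. Centrosomal Cep genes were called higher in 24 of 33 cases, with Cep63, which helps to duplicate the centriole, at 642 FPKM in testis and 11.8 FPKM in liver. Tubulins themselves split: Tuba3a and Tuba3b, which encode nearly the same alpha tubulin and may share reads, had 737 and 570 FPKM in testis and 0.0236 and 0.0196 FPKM in liver, whereas Tubb2a and Tubb2b had 6.93 and 4.49 FPKM in testis and 67.7 and 39.8 FPKM in liver.

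Promoters of this group are shown because a short motif was frequent among them. RefSeq promoters on GRCm38.p6 were found by symbol for 15794 of the kept loci, and the 250 bases before the start were searched on both strands. GTTGCC, the core of the X-box bound by RFX factors, stood in 14 of the 36 axoneme promoters, 38.9%, against 10.4% of all 15794. Shares were higher in 2 small lists, with 3 of 4 red cell promoters and 4 of 10 epididymis promoters. It was in 0 of 22 promoters of sperm motility kinases and channels and 0 of 12 spermatocyte marker promoters. The 3 holders with the highest testis level follow, with the X-box core and any other searched motif in capitals. Ropn1l lies at chr15:31453690-31453939, Tekt2 at chr4:126325689-126325938 and Tekt1 at chr11:72361883-72362132, all on the minus strand.
Ropn1l: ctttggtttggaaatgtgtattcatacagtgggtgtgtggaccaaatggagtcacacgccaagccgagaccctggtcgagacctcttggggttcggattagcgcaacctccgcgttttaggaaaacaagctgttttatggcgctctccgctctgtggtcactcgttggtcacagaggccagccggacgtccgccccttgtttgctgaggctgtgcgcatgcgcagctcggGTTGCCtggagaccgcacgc
Tekt2: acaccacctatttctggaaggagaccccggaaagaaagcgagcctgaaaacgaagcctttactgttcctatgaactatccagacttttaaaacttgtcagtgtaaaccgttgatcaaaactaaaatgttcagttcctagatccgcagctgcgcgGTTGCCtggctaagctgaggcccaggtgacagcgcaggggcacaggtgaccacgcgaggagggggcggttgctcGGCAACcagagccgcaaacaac
Tekt1: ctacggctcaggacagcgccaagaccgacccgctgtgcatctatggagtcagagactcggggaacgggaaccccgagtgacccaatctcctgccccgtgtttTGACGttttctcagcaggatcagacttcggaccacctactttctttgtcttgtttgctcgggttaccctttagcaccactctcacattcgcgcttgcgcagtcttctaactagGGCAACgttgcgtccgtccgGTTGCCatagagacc
Ropn1l holds 1 core ending close to the start. Tekt2 holds 1 core on each strand and Tekt1 likewise, with the Tekt1 promoter also carrying TGACG, the core of the CRE. They were picked as the highest holders once the matches were known. The tektins are filament proteins inside the axonemal doublets: Tekt2 had 532 FPKM in testis and 0.131 FPKM in liver, and Tekt1 had 304 FPKM in testis and a listed 0 in liver. Rfx2 and Rfx3, RFX factors known to drive cilia genes, were themselves called higher. Rfx2 had 56.7 FPKM in testis and 0.0434 FPKM in liver, and Rfx3 had 18.8 FPKM in testis and 0.184 FPKM in liver. Whether they act on the promoters counted here was not tested. Tekt1, Tekt2 and both RFX factors were chosen after their values were seen. Over all loci called higher, 14.9% of 3355 promoters held GTTGCC (exact 95% interval 13.7 to 16.2), against 8.97% of 892 called lower (7.18 to 11.0). TGACGTCA, the full CRE bound by CREM and CREB, was in 2.74% of the higher, 0.448% of the lower and 2.09% of all promoters. The interval of the higher, 2.216 to 3.353, overlapped that of all promoters, 1.872 to 2.325. This motif holds a CpG, and the median CpG count of the window was 12 in the higher and 8 in the lower promoters. The part of base composition in these shares was not tested. A match is letters in a window and shows no binding, and the axoneme list was picked from 60 lists by 7 motifs after its share was seen.

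Every kept gene of the acrosome and sperm-egg binding list, 39 of 39, was called higher, at a median difference of 6.15. Crisp2, a cysteine-rich protein of the acrosome and outer dense fibres, had 2129.8 FPKM in testis and 0.00525 FPKM in liver, the difference being 11.05 on the log2 scale. Adam3, a membrane protein needed for passage through the oviduct, had 669.8 FPKM in testis and 0.0112 FPKM in liver. Clgn, the calnexin of spermatids that folds sperm membrane proteins, had 489.7 FPKM in testis and 0.00638 FPKM in liver, while its general counterpart Canx had 35.5 FPKM in testis and 78.7 FPKM in liver and was not called. Spaca9, an acrosome-associated protein, had 359 FPKM in testis and 0.0148 FPKM in liver. The Adam family as a whole had 20 of 28 called higher. None of 16 Adamts proteases, which share the metalloprotease domain, was called either way. Of these 16, however, 14 were under 1 FPKM in both organs and could not reach a call. Serine proteases named Prss gave 19 of 39 called higher.

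Among ion channels and kinases of sperm motility 21 of 27 were called higher, at a median difference of 5.38. Akap4, the main scaffold of the fibrous sheath and X-linked, had 567 FPKM in testis and 0.00228 FPKM in liver. The phosphatase subunit Ppp1cc, which is required for spermatid development, had 299.8 FPKM in testis and 10.6 FPKM in liver. The testis-specific serine kinases Tssk1 and Tssk2 had 230.1 FPKM in testis and 0.0396 FPKM in liver (Tssk1), and 233 FPKM in testis and a listed 0 in liver (Tssk2), and all 6 Tssk genes were called higher. Slc22a14, a carrier of sperm mitochondria, had 333 FPKM in testis and a listed 0 in liver. Over all 333 Slc loci, 50 were called higher, a smaller share than the background, and 41 lower, a balance that turned to 37 higher and 60 lower with the median ratio and to 36 and 63 without the 100 most abundant loci.

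Genes of cell division were higher in testis. Of 42 kinetochore, spindle and mitotic kinase genes 33 were called higher and none lower, at a median difference of 3.66. Kif2c, a kinesin that takes apart microtubules at centromeres, had 143 FPKM in testis and 0.0385 FPKM in liver. Birc5, the survivin subunit of the chromosomal passenger complex, had 103 FPKM in testis and 1.22 FPKM in liver, and Aurka, the centrosomal Aurora kinase, had 97.9 FPKM in testis and 0.333 FPKM in liver. Nuf2, of the outer kinetochore, had 63.3 FPKM in testis and 0.208 FPKM in liver. Cyclins and their kinases were less one-sided, with 11 of 37 called higher and none lower, and Ccnb2, a mitotic cyclin, had 128 FPKM in testis and 0.295 FPKM in liver. Nucleoporins gave 14 of 20 called higher, led by Nup50 at 69.9 FPKM in testis and 5.58 FPKM in liver.

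DNA replication had 18 of 44 called higher and 1 lower, with 11 higher under the median ratio and 10 without the 100 most abundant loci. Rfc2, of the clamp loader, had 85.5 FPKM in testis and 4.46 FPKM in liver, and Mcm7, of the replicative helicase, had 76.0 FPKM in testis and 6.50 FPKM in liver. Mcm10, which helps to fire replication origins, went the other way at 1.27 FPKM in testis and 18.3 FPKM in liver. Recombination and meiotic repair had 19 of 38 called higher and none lower. Hormad1, which coats unsynapsed chromosome axes, had 43.7 FPKM in testis and 0.00494 FPKM in liver, and Spo11, the enzyme that makes the meiotic DNA breaks, had 27.4 FPKM in testis and a listed 0 in liver. Atr, the checkpoint kinase that acts in silencing the sex chromosomes, had 29.6 FPKM in testis and 0.777 FPKM in liver, and H2afx, the histone that it marks there, had 32.6 FPKM in testis and 3.39 FPKM in liver.

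Regulators of transcription separated the organs as well. Of 24 germ cell transcription factors 19 were called higher and none lower, against 12 of 16 hepatocyte factors called lower and none higher. Ybx3, a cold shock protein that binds stored mRNA, had 914 FPKM in testis and 14.0 FPKM in liver, and Dmrtb1, which governs entry into meiosis, had 213 FPKM in testis and 0.00552 FPKM in liver. Tbpl1 and Gtf2a1l, germ cell forms of the TATA-binding protein and of TFIIA, had 198 FPKM in testis and 2.65 FPKM in liver (Tbpl1), and 194 FPKM in testis and a listed 0 in liver (Gtf2a1l). On the liver side, Creb3l3, a membrane-bound factor of the acute phase and of lipid metabolism, had 0.171 FPKM in testis and 67.4 FPKM in liver. Cebpa, a master factor of hepatocyte metabolism, had 0.872 FPKM in testis and 40.7 FPKM in liver, the bile acid receptor Nr1h4 had 0.128 FPKM in testis and 30.0 FPKM in liver, and Cebpb had 0.856 FPKM in testis and 26.7 FPKM in liver. The 16 hepatocyte factors summed to 14.3 FPKM in testis and 239 FPKM in liver. Of 13 gonadal somatic factors 6 were called higher, among them Nr5a1, the steroidogenic factor, at 11.5 FPKM in testis and a listed 0 in liver.

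Chromatin genes had 15 of 50 called higher, against 20.6% of all protein-coding loci, and none lower, against 6.11%. Kdm3a, a histone demethylase needed for protamine genes, had 66.3 FPKM in testis and 4.93 FPKM in liver, and the testis bromodomain protein Brdt had 61.2 FPKM in testis and 0.224 FPKM in liver. Ehmt2, a histone methyltransferase of meiotic prophase, had 58.8 FPKM in testis and 5.54 FPKM in liver. Of 18 histone variants 8 were called higher, and 4 under the median ratio or without the 100 most abundant loci: Hils1 and H1fnt, linker histones of spermatids, had 413 FPKM in testis and a listed 0 in liver (Hils1), and 203 FPKM in testis and 0.00549 FPKM in liver (H1fnt), and H2afz, a general variant, had 278 FPKM in testis and 57.7 FPKM in liver. Replication-dependent histones gave 22 of 53 called higher, and 14 without the 100 most abundant loci, but their mRNAs mostly lack a poly(A) tail and the libraries were made from polyadenylated RNA. Hist1h2bc was the 1 called lower, at 55.1 FPKM in testis and 652 FPKM in liver.

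**Figure D2:**
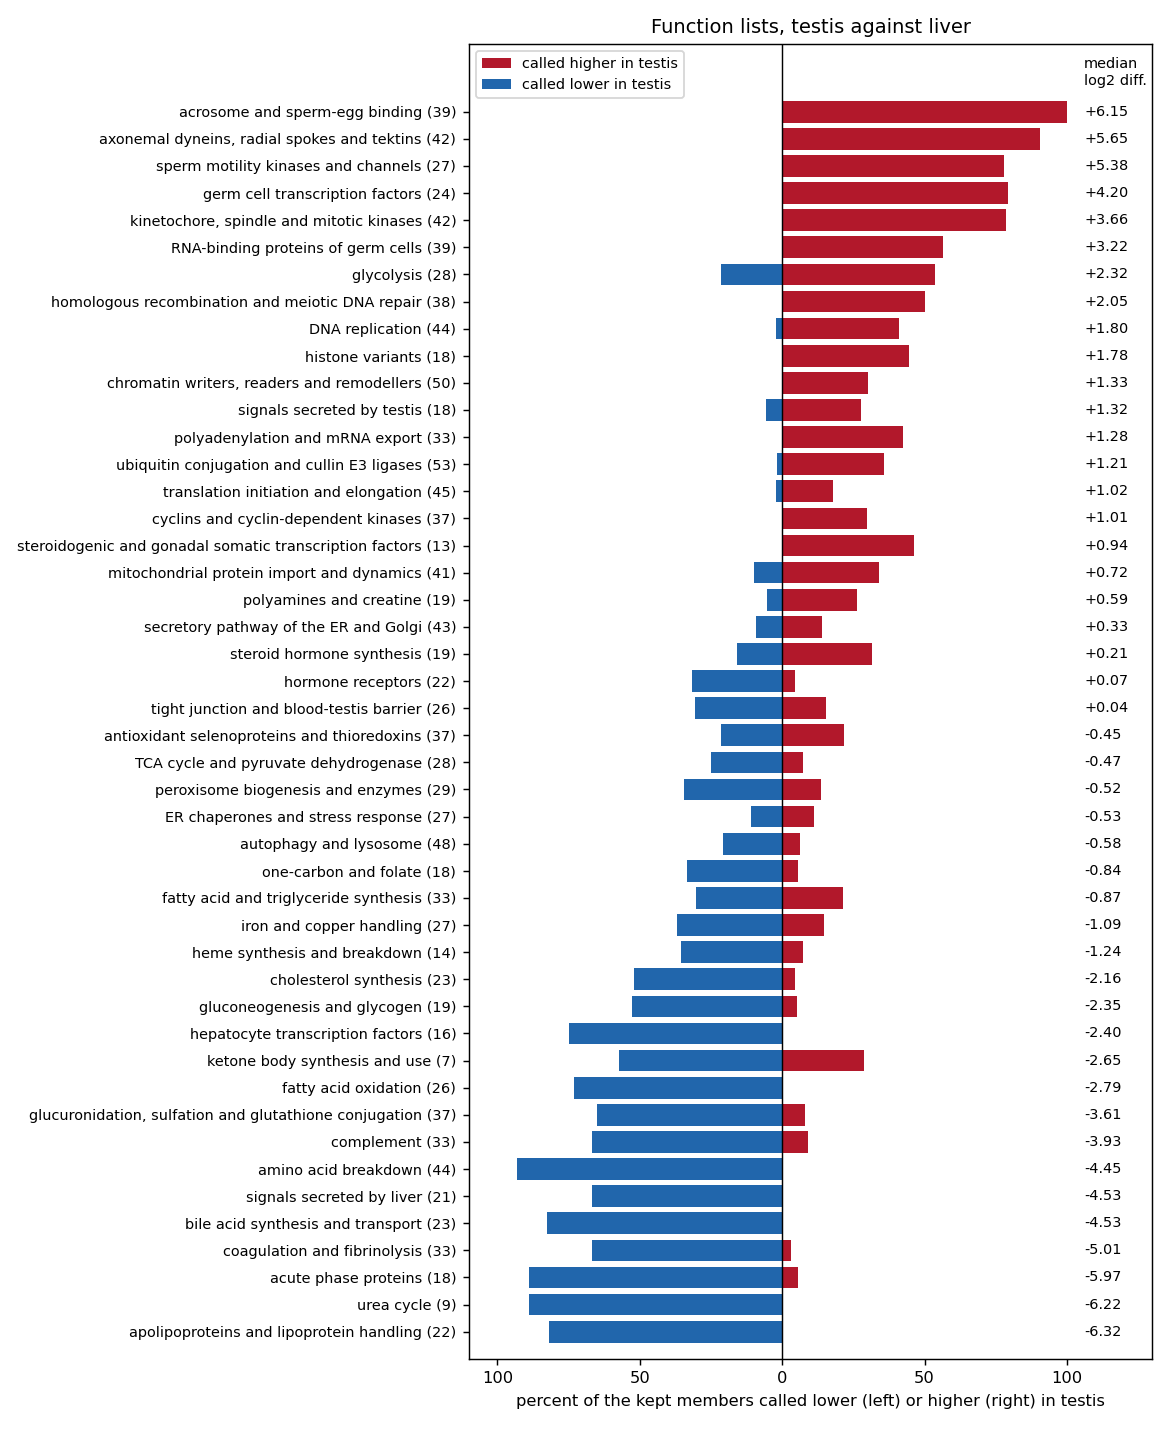
Bars give the percent of kept members of each of 46 function lists called higher in testis (red, to the right) or lower (blue, to the left), with the number kept in brackets and the median log2(FPKM + 1) difference, testis minus liver, at the right. Acrosome genes reach 100% higher, and amino acid breakdown, urea cycle and acute phase lists lie furthest to the lower side.

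Germ cells store and control mRNA for long periods, and the genes for this were higher. Of 39 RNA-binding proteins of germ cells 22 were called higher and none lower, and all 8 Tdrd genes, whose tudor domains hold the piRNA machinery together, were called higher. Mael, a piRNA pathway protein, had 429.7 FPKM in testis and 0.00459 FPKM in liver, and Ddx25, a helicase that moves mRNA in spermatids, had 301 FPKM in testis and 0.0544 FPKM in liver. Cpeb2, a regulator of poly(A) length, had 157 FPKM in testis and 6.09 FPKM in liver, and Adad1, an RNA-binding protein of spermatids, had 99.8 FPKM in testis and a listed 0 in liver. Polyadenylation and export genes had 14 of 33 called higher and none lower. Pabpc1, the general poly(A)-binding protein, had 996 FPKM in testis and 90.9 FPKM in liver, and Pabpc2, its germ cell form, had 394 FPKM in testis and 0.00774 FPKM in liver. Nudt21, a cleavage factor that sets the choice of poly(A) site, had 112 FPKM in testis and 9.38 FPKM in liver.

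Translation factors had 8 of 45 called higher, a share close to the background, and Eif2s3x alone called lower, with 2 higher and 2 lower under the median ratio or without the 100 most abundant loci. Eif3g had 227 FPKM in testis and 48.8 FPKM in liver, and Eif4e2, a cap-binding repressor, had 103 FPKM in testis and 23.9 FPKM in liver. The elongation factor Eef1a1 had 1144 FPKM in testis and 1891 FPKM in liver and was not called, and was chosen after its value was seen. Ubiquitin genes had 19 of 53 called higher and 1 lower, with 10 higher without the 100 most abundant loci. Ubb, a polyubiquitin gene that male germ cells need, had 5631 FPKM in testis and 577 FPKM in liver, and Cul3, a ligase scaffold of spermatids, had 643 FPKM in testis and 60.2 FPKM in liver. Ube2j1, which removes proteins from the ER and is required for sperm formation, had 397 FPKM in testis and 13.3 FPKM in liver, and Ube2m, the NEDD8 conjugating enzyme, had 349 FPKM in testis and 47.7 FPKM in liver. Ube2l6, which conjugates the interferon-induced modifier ISG15, was the member called lower, at 0.467 FPKM in testis and 10.3 FPKM in liver.

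Glycolysis leaned to testis and also showed an exchange of genes. Of its 28 members 15 were called higher and 6 lower, at a median difference of 2.32. Without the 100 most abundant loci 12 were higher and 7 lower, at a median of 1.46. Sperm glycolysis runs along the fibrous sheath with enzymes that germ cells take from their own gene copies. Gapdhs, the glyceraldehyde phosphate dehydrogenase of sperm, on mm9 at chr7:31514799-31528700, had 1254 FPKM in testis and 0.0262 FPKM in liver, with an interval of 1243 to 1265 FPKM in testis. Gapdh, its general counterpart, had 10.5 FPKM in testis and 57.1 FPKM in liver. Pgk2, an intronless phosphoglycerate kinase at chr17:40343963-40345554, had 686 FPKM in testis and 0.0133 FPKM in liver, and X-linked Pgk1 at chrX:103382439-103399038 had 4.06 FPKM in testis and 64.7 FPKM in liver. The intervals of Pgk1, 3.70 to 4.42 FPKM in testis and 63.8 to 65.7 FPKM in liver, were far apart. Ldhc, the sperm lactate dehydrogenase, had 6092 FPKM in testis and 0.0211 FPKM in liver, so that it made up 96.4% of the sum of Ldhc and Ldha in testis and 0.0169% in liver. Pgam2, a phosphoglycerate mutase otherwise known from muscle, had 769 FPKM in testis and 0.00971 FPKM in liver.

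Gluconeogenesis and glycogen genes had 10 of 19 called lower and 1 higher, at a median difference of -2.35. Pck1 and G6pc, which start and finish glucose synthesis, had 0.104 FPKM in testis and 363 FPKM in liver (Pck1), and 0.0405 FPKM in testis and 99.9 FPKM in liver (G6pc). G6pc3, the form of glucose-6-phosphatase found in most tissues, was higher in testis at 33.3 FPKM in testis and 0.432 FPKM in liver. Fbp1, which acts between those steps, was not called and had 192 FPKM in testis and 223 FPKM in liver. Tpi1, an enzyme with 1 gene for all tissues, had 272 FPKM in testis and 194 FPKM in liver and was not called; Fbp1 and Tpi1 were chosen after their values were seen.

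Such exchanges were followed in 50 pairs of related genes, of which 1 member is in most cases known for expression in germ cells and the other is the general or liver form. In some pairs, such as those of Pkm, Slc2a3 and Eif2s3y, the first member is widely expressed, and Eif2s3y had 16.9 FPKM in testis and 14.2 FPKM in liver. In 43 pairs both members were kept. The germ cell member was called higher in 39 and the other member lower in 18, higher in 6 and neither in 19. In 17 pairs the germ cell member was higher and its partner lower at once. The germ cell member held more than 50% of the pair's summed FPKM in 37 pairs in testis and in 1 pair in liver. The widest exchange was between fatty acid-binding proteins: Fabp9, of the perforatorium of sperm, had 1465 FPKM in testis and 0.0164 FPKM in liver, and Fabp1, the liver form, had 1.11 FPKM in testis and 3179 FPKM in liver. Not every pair is a copy in the strict sense, since Actl7b and Actb, or Klhl10 and Keap1, are only related proteins.

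The respiratory chain repeated this on a small scale. Cytochrome oxidase subunits were balanced as a family, with 3 of 25 called higher and 3 lower, and each was the partner of another: Cox8c had 882 FPKM in testis and 0.0229 FPKM in liver while Cox8a had 8.49 FPKM in testis and 48.0 FPKM in liver, Cox7b2 had 578 FPKM in testis and a listed 0 in liver while Cox7b had 2.07 FPKM in testis and 41.3 FPKM in liver, and Cox6b2 had 133 FPKM in testis and 0.0537 FPKM in liver while Cox6b1 had 39.1 FPKM in testis and 203 FPKM in liver. Cytosolic ribosomal proteins did the same. Of 79 kept, 2 were called higher and 4 lower, at a median of 0.42 that falls to -0.52 under scaling without the 100 most abundant loci. Rpl10l and Rpl39l, germ cell copies of subunits of the large ribosomal unit, had 383 FPKM in testis and 0.0226 FPKM in liver (Rpl10l), and 935 FPKM in testis and 0.0877 FPKM in liver (Rpl39l). Their counterparts Rpl10 and Rpl39 had 42.8 FPKM in testis and 304 FPKM in liver (Rpl10), and 22.5 FPKM in testis and 133 FPKM in liver (Rpl39), and the other members called lower, Rpl36a and Rps4x, had 18.4 FPKM in testis and 102 FPKM in liver (Rpl36a), and 7.02 FPKM in testis and 54.7 FPKM in liver (Rps4x). Rpl10, Rpl39, Rpl36a and Rps4x are all X-linked.

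**Figure D3:**
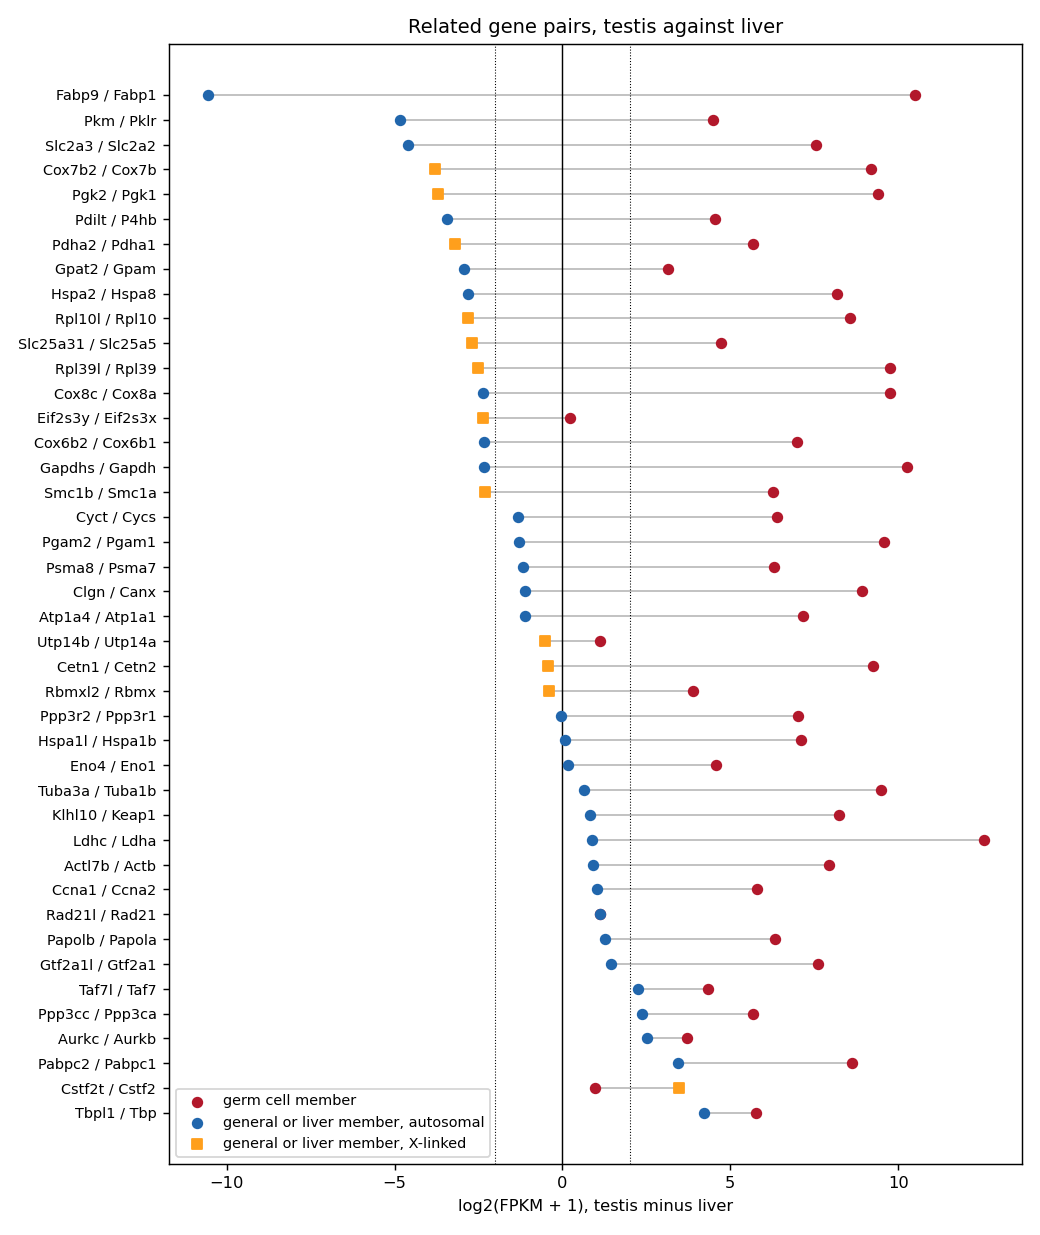
Each row is 1 of 42 pairs with both members kept (1 further pair is not drawn), and the horizontal axis gives log2(FPKM + 1), testis minus liver, with 1 library each and dotted lines at the call threshold. Red points are germ cell members, blue points autosomal partners and orange squares X-linked partners, of which 8 lie beyond -2.

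In 12 of the 43 pairs the general member is X-linked: 8 of these partners were called lower and 1 higher, with a median difference of -2.44, against 10 lower and 5 higher among 31 autosomal partners, with a median of -0.06. The 8 are Pgk1, Pdha1, Slc25a5, Cox7b, Rpl10, Rpl39, Smc1a and Eif2s3x, which between them serve glycolysis, pyruvate oxidation, ATP export from mitochondria, respiration, translation and cohesion. Pdha2, the intronless E1 subunit of pyruvate dehydrogenase, had 50.5 FPKM in testis and 0.00286 FPKM in liver while Pdha1 had 1.73 FPKM in testis and 24.3 FPKM in liver, and Smc1b, the meiotic cohesin subunit, had 78.0 FPKM in testis and 0.0240 FPKM in liver while Smc1a had 2.23 FPKM in testis and 15.1 FPKM in liver. Cstf2 was the 1 X-linked partner called higher, at 67.6 FPKM in testis and 5.13 FPKM in liver, while its autosomal copy Cstf2t had 7.003 FPKM in testis and 3.09 FPKM in liver and was not called. The pairs were chosen with this biology known, so these counts describe them and are no independent sign of it.

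All of X was then set beside the autosomes. Of 764 kept protein-coding loci on X, 25.3% were called higher and 6.68% lower, shares within the autosomal ranges of 16.5 to 25.5% and 4.50 to 8.56%. Loci at 1 FPKM or more in both organs behaved differently: the 167 on X had a median difference of -0.50, while the medians of the 19 autosomes lay between 0.42 and 0.80. Among these shared loci, 5.99% on X were called higher and 22.2% lower, against 20.5% higher and 7.48% lower over 6896 autosomal loci. X-linked loci at 1 FPKM or more in testis alone made up 34.2% of those kept on X, against 20.05% of those kept on autosomes. Of these, 183 of 261 on X and 2268 of 3622 on autosomes were called higher, the only call their selection allows. The distance between the X and autosomal medians was of like size under every scaling: -1.28 on X and -0.18 on autosomes without the 100 most abundant loci, and -1.06 and 0.05 with the median ratio. The share of X loci at 1 FPKM or more was 56.0% in testis and 28.5% in liver, where the lowest autosomal share was 36.3%.

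**Figure D4:**
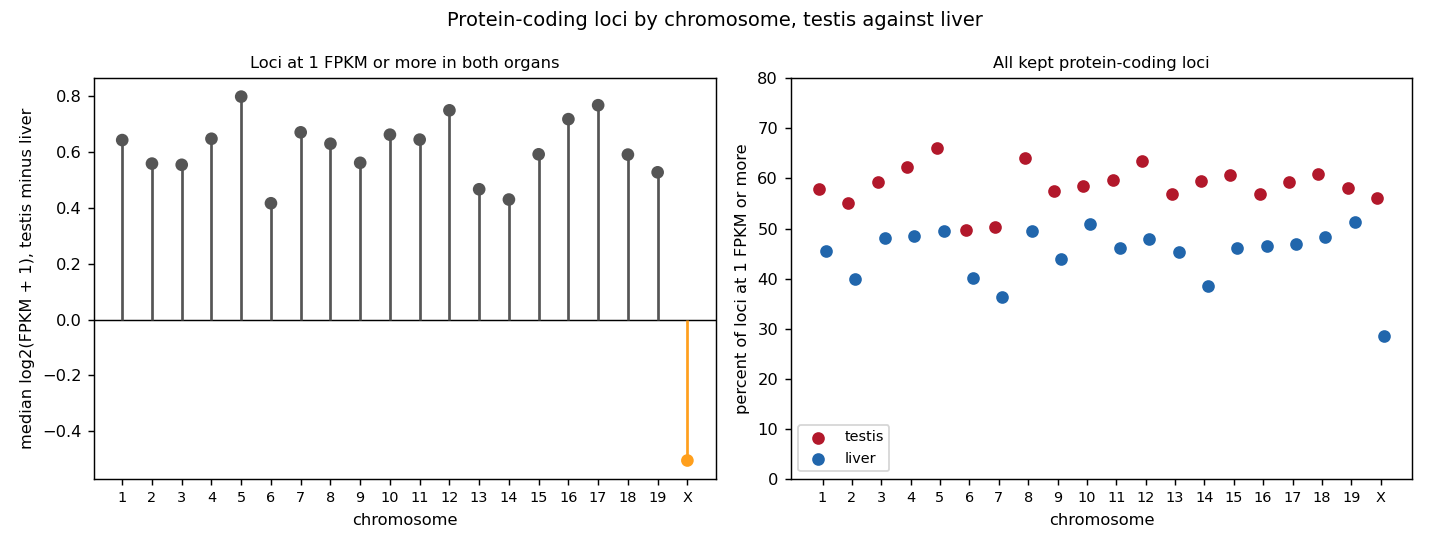
The left panel gives, per chromosome, the median log2(FPKM + 1) difference, testis minus liver, of protein-coding loci at 1 FPKM or more in both organs, and the right panel the percent of kept protein-coding loci at 1 FPKM or more in testis (red) and liver (blue). Among the 19 autosomes and X, which are the chromosomes drawn, X alone lies below 0 on the left, at -0.50, and its liver share of 28.5% is the lowest on the right.

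Genes of hepatocyte metabolism were lower in testis. Of 44 genes of amino acid breakdown 41 were called lower and none higher, at a median difference of -4.45, and 8 of 9 urea cycle genes were called lower, at a median of -6.22. Gnmt, which methylates glycine and disposes of excess methionine, had 1.002 FPKM in testis and 945 FPKM in liver, and Bhmt, which remakes methionine from betaine, had 28.3 FPKM in testis and 852 FPKM in liver. Tat and Hpd, successive steps of tyrosine breakdown, had 0.0770 FPKM in testis and 792 FPKM in liver (Tat), and 0.315 FPKM in testis and 599.5 FPKM in liver (Hpd). Of the urea cycle, Arg1 had 0.201 FPKM in testis and 879.9 FPKM in liver, Cps1, the entry step, had 0.148 FPKM in testis and 591 FPKM in liver, and Ass1 and Asl had 6.04 FPKM in testis and 557 FPKM in liver (Ass1), and 14.9 FPKM in testis and 464 FPKM in liver (Asl). Arg2, the arginase of other tissues, was the 1 member without a call. Bile acid synthesis and transport had 19 of 23 called lower, with the sterol carrier Scp2 at 20.5 FPKM in testis and 1913 FPKM in liver and the uptake transporter Slco1b2 at 0.0387 FPKM in testis and 155 FPKM in liver.

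Lipid lists differed in their balance of calls. Fatty acid oxidation had 19 of 26 called lower and none higher, with Acaa2, the last step of the mitochondrial spiral, at 16.2 FPKM in testis and 288 FPKM in liver. Ketone genes had 2 of 7 called higher and 4 lower, and the higher ones, Oxct2a and Oxct2b, germ cell copies of the enzyme that starts the use of ketone bodies, had 75.9 FPKM in testis and a listed 0 in liver (Oxct2a), and 107 FPKM in testis and 0.00830 FPKM in liver (Oxct2b) and may share reads. Cholesterol synthesis had 12 of 23 called lower and 1 higher, the squalene synthase Fdft1 at 105 FPKM in testis and 20.5 FPKM in liver. The list of fatty acid and triglyceride synthesis also holds lipases, which break triglycerides down. It had 7 of 33 called higher, the lipases Lipe and Pnpla2 among them, and 10 lower. These counts were 5 and 15 under the median ratio and 4 and 16 without the 100 most abundant loci. The desaturase Scd1 had 6.49 FPKM in testis and 1634 FPKM in liver, whereas Gpat4, which starts glycerolipid synthesis in the ER, had 412 FPKM in testis and 69.1 FPKM in liver, and the lipases Lipe and Pnpla2 had 89.6 FPKM in testis and 1.19 FPKM in liver (Lipe), and 68.6 FPKM in testis and 6.99 FPKM in liver (Pnpla2). Acsl1, an acyl-CoA synthetase of the oxidation list chosen after its value was seen, had 651 FPKM in testis and 222 FPKM in liver and was not called.

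Genes of secreted plasma proteins were lower as well. Coagulation had 22 of 33 called lower and 1 higher, complement 22 of 33 lower and 3 higher, acute phase proteins 16 of 18 lower and 1 higher, and apolipoproteins and lipoprotein handling 18 of 22 lower and none higher. Fgb, the beta chain of fibrinogen, had 0.9501 FPKM in testis and 4031 FPKM in liver, and Apoe, which guides lipoprotein uptake, had 77.6 FPKM in testis and 10747 FPKM in liver. Apoa1, the main protein of HDL, had 1.60 FPKM in testis and 9952 FPKM in liver, with an interval of 1.29 to 1.92 FPKM in testis. The hormone of iron balance, Hamp, had 0.694 FPKM in testis and 2796 FPKM in liver, and Ahsg, the carrier protein fetuin-A, had 0.262 FPKM in testis and 1867 FPKM in liver. The members called against their lists were Serpina5 at 21.8 FPKM in testis and 0.273 FPKM in liver, C7 at 9.82 FPKM in testis and 0.323 FPKM in liver, Cfd at 16.8 FPKM in testis and 0.0601 FPKM in liver, Cd46 at 5.55 FPKM in testis and 0.107 FPKM in liver and Lcn2 at 211 FPKM in testis and 2.75 FPKM in liver. Serpina5 is a protease inhibitor also made in the male tract, Cd46 is a complement regulator found on the mouse acrosome, and Lcn2 binds siderophores.

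Promoters of some of these lists also held motifs more often than promoters at large. For that reason those of the abundant genes Fgb, Vtn and Alb are shown. Alb is a hepatocyte marker and belongs to none of these lists, so its promoter is in none of their counts. TTGCNNAA, a C/EBP site, was in 9 of the 16 acute phase promoters, 56.2%, against 8.84% of all promoters. GTTAAT, the core bound by HNF1, was in 9 of 25 complement promoters, 36.0%, against 5.67% of all, and both lists were picked after their shares were seen. Promoters of apolipoproteins and lipoprotein handling did not stand out, with each of these motifs in 1 of 16, 6.25%. Fgb lies at chr3:83049864-83050113 on the minus strand, Vtn at chr11:78498870-78499119 and Alb at chr5:90460620-90460869 on the plus strand, all on GRCm38.p6, with every searched motif in capitals.
Fgb: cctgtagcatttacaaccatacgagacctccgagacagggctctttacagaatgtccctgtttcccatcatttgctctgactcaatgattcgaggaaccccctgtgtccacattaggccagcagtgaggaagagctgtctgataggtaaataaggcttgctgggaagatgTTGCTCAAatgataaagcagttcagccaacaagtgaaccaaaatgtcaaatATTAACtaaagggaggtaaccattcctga
Vtn: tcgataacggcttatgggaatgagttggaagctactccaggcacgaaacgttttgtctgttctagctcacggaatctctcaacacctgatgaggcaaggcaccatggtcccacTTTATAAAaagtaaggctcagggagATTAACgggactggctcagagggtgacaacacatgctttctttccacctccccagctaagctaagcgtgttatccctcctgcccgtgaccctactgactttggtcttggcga
Alb: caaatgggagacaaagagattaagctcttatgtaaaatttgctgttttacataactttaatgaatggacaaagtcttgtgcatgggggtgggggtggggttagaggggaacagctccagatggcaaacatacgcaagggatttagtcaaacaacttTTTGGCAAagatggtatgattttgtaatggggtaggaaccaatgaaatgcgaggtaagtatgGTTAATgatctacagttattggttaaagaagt
The Fgb window holds 1 C/EBP site and, closer to the start, 1 HNF1 core, and the Alb window holds the same pair of motifs in the same order. Vtn, vitronectin, a plasma and matrix protein, had 0.299 FPKM in testis and 487 FPKM in liver, and its window holds an HNF1 core downstream of a TATA box, TATAAA, which is read on both strands with overlap. Alb, albumin, had 3.79 FPKM in testis and 20975 FPKM in liver. Over all loci called lower, GTTAAT was in 9.87% of 892 promoters (exact 95% interval 7.99 to 12.01), against 3.90% of 3355 called higher (3.28 to 4.62). The C/EBP site was in 11.8% of the lower (9.73 to 14.1) and 6.97% of the higher (6.14 to 7.89), and CAAAGTCCA, an HNF4 site, in 1.68% of the lower and 0.298% of the higher. Among the 102 promoters of loci at least 100-fold lower, GTTAAT was in 24.5% and the C/EBP site in 25.5%, but their median GC content was 46.0%, against 56.0% over all promoters, and the part of base composition was not tested.

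Detoxifying families were mostly lower, with exceptions that carry high testis levels. Cytochrome P450 genes gave 44 of 92 called lower and 4 higher, UDP-glucuronosyltransferases 9 of 9 lower with 11 more lacking an OK estimate, and carboxylesterases 12 of 19 lower. Cyp3a11 had 0.143 FPKM in testis and 939 FPKM in liver. The 4 higher P450 genes were Cyp17a1, Cyp11a1 and Cyp19a1 of steroid synthesis, and Cyp4f39, an omega-hydroxylase of fatty acids. Glutathione transferases split into 5 higher and 11 lower of 25. Gstm5, a form of testis and brain in the mouse, had 1941 FPKM in testis and 2.40 FPKM in liver, while Mgst1, a microsomal form, had 24.1 FPKM in testis and 1722 FPKM in liver and Gstp1 had 9.78 FPKM in testis and 657 FPKM in liver, although Gstp1 and Gstp2 are near copies whose reads may be shared. Steroid synthesis overall was near 0, at a median of 0.21 that ran from -0.25 to 0.41 over the alternatives, with 6 of 19 called higher and 3 lower. Cyp17a1, which makes androgens, had 76.6 FPKM in testis and 8.97 FPKM in liver, and Star, which carries cholesterol into mitochondria, had 25.3 FPKM in testis and 0.260 FPKM in liver, whereas Hsd3b5, a form of male mouse liver, had 0.00913 FPKM in testis and 60.3 FPKM in liver.

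**Figure D5:**
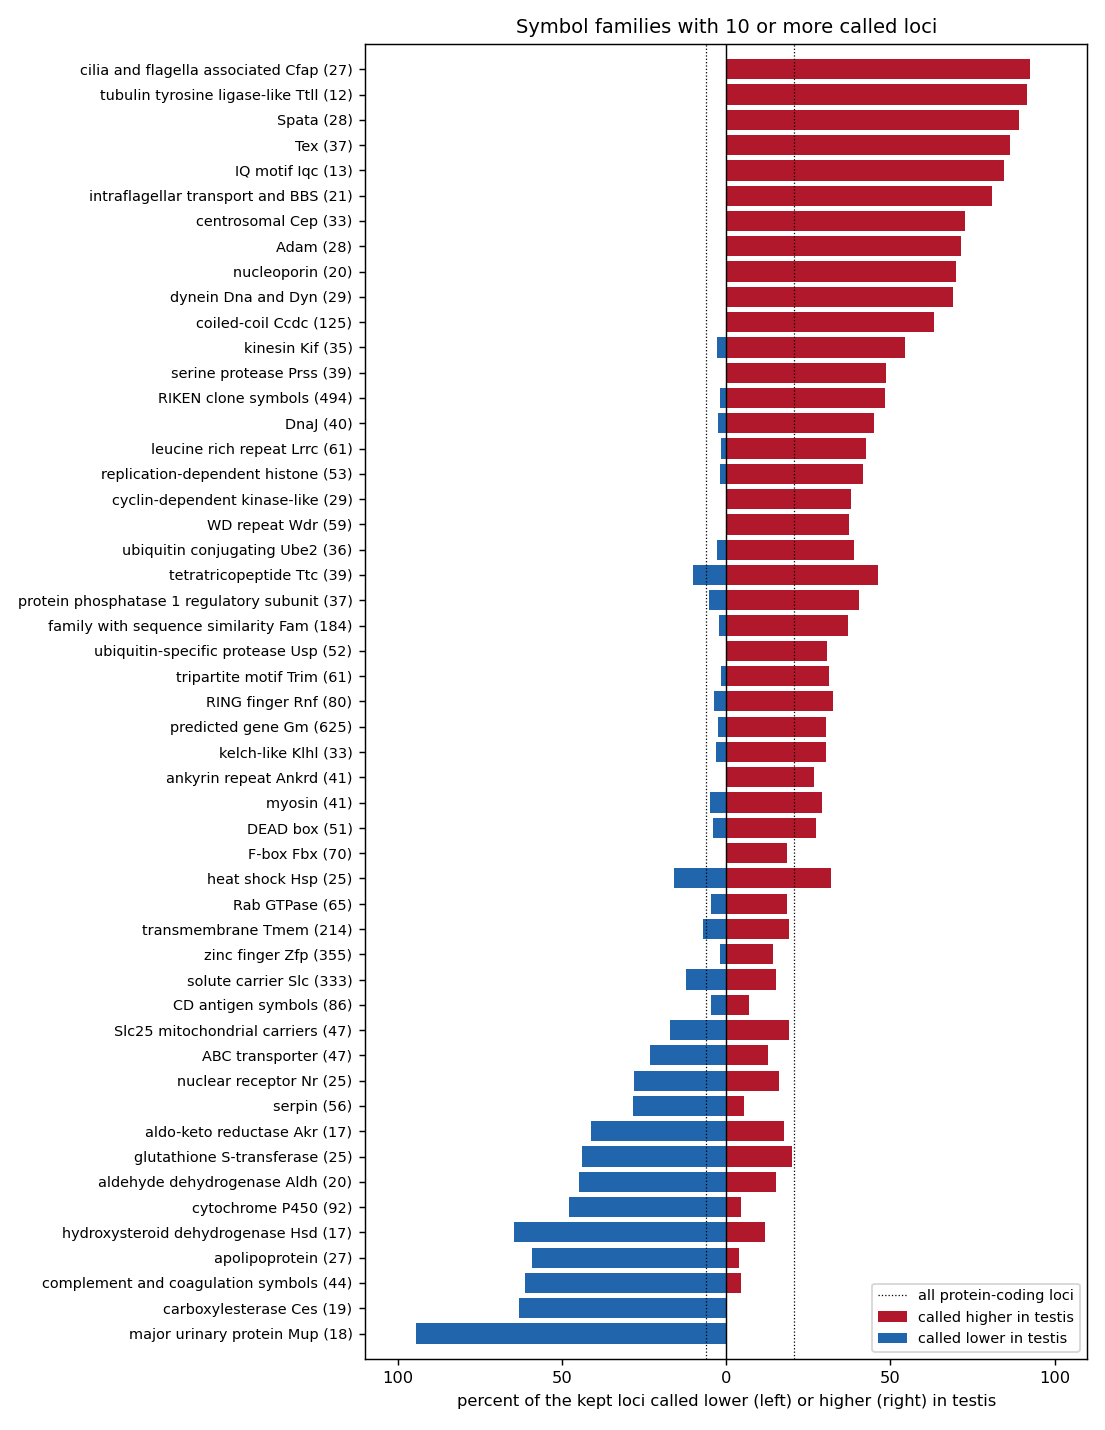
Bars give the percent of kept protein-coding loci called higher in testis (red, to the right) or lower (blue, to the left) for the 51 symbol families with 10 or more called loci, with the number kept in brackets. Dotted lines mark the shares over all protein-coding loci, 20.6% higher and 6.11% lower.

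Some lists held strong differences in both directions. Antioxidant genes had 8 of 37 called higher, a share close to the 20.6% of all protein-coding loci, and 8 lower, a share above their 6.11%. These counts became 7 and 13 under the median ratio and 7 and 14 without the 100 most abundant loci. In the iron and copper, heme and TCA cycle lists below, the share called higher was under 20.6%. Gpx4, which becomes a structural protein of the sperm midpiece, had 333 FPKM in testis and 35.0 FPKM in liver, and the sperm thioredoxins Txndc2 and Txndc8 had 313 FPKM in testis and a listed 0 in liver (Txndc2), and 188 FPKM in testis and a listed 0 in liver (Txndc8), while Gpx1, a general glutathione peroxidase, had 39.9 FPKM in testis and 1438 FPKM in liver and Prdx1, a peroxiredoxin, had 36.5 FPKM in testis and 263 FPKM in liver. Iron and copper handling had 4 of 27 higher and 10 lower. The metallothioneins Mt1 and Mt2, which bind zinc and copper, had 211 FPKM in testis and 5.70 FPKM in liver (Mt1), and 148 FPKM in testis and 4.87 FPKM in liver (Mt2), and transferrin, Trf, had 23.4 FPKM in testis and 17060.2 FPKM in liver. Heme genes had 5 of 14 lower, 8 without the 100 most abundant loci, and 1 higher, Hmox2, the constitutive heme oxygenase, at 882 FPKM in testis and 46.0 FPKM in liver. The TCA cycle list had 2 of 28 called higher and 7 lower, against 1 and 11 without the 100 most abundant loci. Sucla2, the ATP-forming succinyl-CoA ligase subunit, was called higher at 409 FPKM in testis and 86.8 FPKM in liver, and cytosolic Mdh1 was called lower at 13.4 FPKM in testis and 262 FPKM in liver.

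Other lists crossed 0 under at least 1 scaling. Mitochondrial import and dynamics had a median of 0.72 (range -0.19 to 0.92), with 14 of 41 called higher, 8 without the 100 most abundant loci, and 4 lower. Among them were Spata19, which shapes sperm mitochondria, at 597 FPKM in testis and a listed 0 in liver and Vdac2 at 192 FPKM in testis and 20.1 FPKM in liver, against Hspd1, the chaperonin of the matrix, at 15.8 FPKM in testis and 184 FPKM in liver and Vdac1 at 18.6 FPKM in testis and 104 FPKM in liver. The porins thus went opposite ways. The secretory pathway had a median of 0.33 (range -0.54 to 0.52), with 6 of 43 called higher and 4 lower, and 3 and 7 without the 100 most abundant loci. Polyamine and creatine genes had a median of 0.59 (range -0.05 to 0.90), with 5 of 19 called higher and 1 lower, or 3 lower without the 100 most abundant loci, and Oaz3, the antizyme of spermatids, had 943 FPKM in testis and 0.00661 FPKM in liver. The list of tight junction and blood-testis barrier genes also holds the gap junction gene Gjb1. It had a median of 0.04 (range -0.50 to 0.17), with 4 of 26 called higher and 8 lower. Cldn11, the claudin of the blood-testis barrier, had 45.0 FPKM in testis and 0.00375 FPKM in liver, and the connexin Gjb1 had 0.0189 FPKM in testis and 95.3 FPKM in liver. Hormone receptors had a median of 0.07 (range -0.30 to 0.49), with 1 of 22 called higher and 7 lower. Amhr2, the receptor of anti-Mullerian hormone, was the 1 called higher at 55.3 FPKM in testis and 0.0440 FPKM in liver, and the growth hormone receptor Ghr was lower at 3.41 FPKM in testis and 145 FPKM in liver.

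Among uncharacterised genes, 239 of 494 with RIKEN clone symbols were called higher and 9 lower, or 18 lower without the 100 most abundant loci, and 189 of 625 predicted Gm genes higher and 15 lower. Large receptor families were nearly silent in both: of 873 olfactory receptors 868 were under 1 FPKM in both organs, and 1, Olfr701, was called higher at 12.5 FPKM in testis and a listed 0 in liver. MHC genes leaned to liver, with 8 of 31 H2 loci called lower and none higher, led by H2-Q10, a secreted class I protein of mouse liver, at 0.202 FPKM in testis and 696 FPKM in liver. Of 2853 long noncoding loci 462 were called higher, 16.2% against the background of 17.5%, and 16 lower, 0.561% against 4.44%. The highest of them, 4930570D08Rik, had 1393 FPKM in testis and a listed 0 in liver, and the highest called lower, Gm11008, had 7.12 FPKM in testis and 49.1 FPKM in liver. All 9 mitochondrial loci that were called, of 15 kept, were lower, and all 13 protein-coding ones were called lower without the 100 most abundant loci. These 13 summed to 16714 FPKM in testis and 61897 FPKM in liver.

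Called loci also sat side by side. Among neighbouring protein-coding loci there were 22 runs of 5 or more called higher and 11 called lower. The longest lower run held 17 Mup genes on chromosome 4, between 59977166 and 61811897 on mm9, which encode carriers of urinary pheromones and summed to 18.6 FPKM in testis and 169065 FPKM in liver. Other lower runs were 9 Rdh and related genes of retinoid and steroid conversion on chromosome 10, 9 Ugt2 and Sult1 genes on chromosome 5, 7 Cyp2c genes on chromosome 19 and 7 Cyp3a genes on chromosome 5. The run on chromosome 16, between 22892115 and 23082141, held the plasma proteins Ahsg, Fetub, Hrg, Kng2 and Kng1, which are related but distinct, and summed to 1.44 FPKM in testis and 4233 FPKM in liver. The longest higher run held 15 mostly predicted genes on chromosome 14, between 3030002 and 5124507, summing to 507 FPKM in testis and 0.105 FPKM in liver. Further higher runs held 11 predicted genes on X and 9 genes around Speer4a and Speer4b on chromosome 5. Genes in the Mup, Ugt2, Cyp2c and predicted gene runs are near copies, so reads may be shared among them and each member's own level is uncertain. The run on chromosome 4 between 116832244 and 117438253 is of another kind, with 7 unrelated genes, Kif2c, Armh1, Tmem53, Rnf220, Eri3, Dmap1 and Klf17.

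The requirement for OK estimates removed genes that belong to this comparison. As listed, 374 of the 1704 loci without an OK estimate were at least 4-fold higher in testis and 93 at least 4-fold lower. They include Ybx2, a germ cell mRNA-binding protein listed at 826 FPKM in testis and 0.0191 FPKM in liver, and Insl3, the Leydig cell hormone, at 299 FPKM in testis and 0.0530 FPKM in liver. Among the lower ones are Ttr, the thyroxine carrier, listed at 0.222 FPKM in testis and 6286 FPKM in liver, and Apoa5. These listed values were chosen after they were seen and enter no count above.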

How the data were processed

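Polyadenylated RNA of 1 testis library and 1 liver library was sequenced strand-specifically, in 76 single-end cycles on 3 lanes each, per the labels' protocols. Reads were processed with TopHat 1.4.0, Bowtie 0.12.5 and Cufflinks 2.0.0 on mm9, per the submitters' processing notes; the sources used here do not name the gene annotation or the filters. The deposited tables hold the authors' FPKM per gene with a lower and an upper bound, whose level the file headers do not name. The bounds cover estimation within a library and not the spread between animals, and read counts were not used here.

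Tables were joined on gene identifier, and loci spanning at least 200 bp with OK estimates in both were kept. Differences are log2(FPKM + 1), testis minus liver, so they understate changes of low genes; calls needed a difference of at least 2 and intervals that did not overlap. The deposited scale was used unchanged. Symbols came from GENCODE M21 by identifier, promoters from RefSeq by symbol, and motif intervals are exact binomial ones that cover counting error only. The calling rule was run on values simulated from the liver levels with counting error alone. That run holds no spread between animals and no shared reads, so it checks the code and not the calls reported here. Python 3.11.15, pandas 2.3.3, numpy 2.4.6 and scipy 1.17.1 were used.

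The gene lists, families and pairs were chosen with earlier results of these data known. Genes are named where they had the highest level among the called members of a list or family (4 per direction of a list, 1 per family), were called against their list, belonged to a marker list, a pair or a long run, or were among the 5 highest called noncoding loci. Dnah5, Dnah9, Dnah11, Rsph4a, Tuba3b, Tubb2b, Tekt1, Tekt2, Rfx2, Rfx3, Eef1a1, Fbp1, Tpi1, Rpl36a, Rps4x, Arg2, Acsl1, Cyp19a1, Cyp4f39, genes without an OK estimate, the chromosome 16 run, the run of unrelated genes on chromosome 4, the promoters shown and the promoter groups at least 100-fold apart were chosen after their values were seen. Alternatives were another pseudocount, 4 scalings, other folds, spans and filters. Some genes are not reported here by name.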

Additional observations from a re-analysis of the deposited data

How the results depend on the processing

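Counts of calls moved with the fold, the pseudocount and the scaling. Against 5258 loci higher and 1337 lower, a pseudocount of 0.1 gave 8303 higher and 2069 lower, a 2-fold minimum 8588 and 2480, and an 8-fold minimum 3264 and 747. Scaling to the FPKM sum without the 100 most abundant loci gave 2012 lower. The share of calls that were higher, 79.7% as reported, was 82.0% with the FPKM sum, 81.6% with the protein-coding sum, 70.5% with the median ratio, 66.0% without the 100 most abundant loci, 77.6% at 2-fold, 81.4% at 8-fold and 77.1% over protein-coding loci alone. The other alternatives kept both counts within 1.5 times those reported. Of 175 lists and families, 147 kept the sign of their median under every alternative run. No paired analysis was possible because each organ has 1 library, and none could be left out. Precision at low levels is limited by depth, which the tables do not give.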
